A study of Microtus ochrogaster with 51 samples.

Results

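Of 51 nucleus accumbens libraries of prairie voles (Microtus ochrogaster) in the deposited TPM table, 42 also had a column in the authors' normalized count table and 9 did not. Of those 9, 6 came from voles paired for 6 weeks, a group that the normalized table leaves out as a whole. The other 3 are the subject here: the female of pair 15 and the male of pair 15, both paired for 2 weeks, and the male of pair 23, which lived with its mate for 2 weeks and apart from it for the next 4 weeks. They were chosen here by that absence alone. Whether the authors omitted them for values in these same data is not known. The p-values below therefore cannot be read as coming from groups formed without regard to the values. They were compared with the 42 libraries present in both tables, called the kept libraries below. The kept libraries came from 9 females and 9 males paired for 2 weeks and from 12 females and 12 males that had been separated. The normalized table is described by its submitters as one of quality samples, and the reason for each omission is not given in the sources used here.

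Each library was made from polyadenylated RNA of the nucleus accumbens of 1 frozen brain, and every animal had been housed with an opposite-sex mate. The series compared voles kept with their partner with voles that lost it. The pair 15 partners belong to cohort 2, with 14 kept libraries, and the male of pair 23 belongs to cohort 3, with 10 kept libraries. No library of the female of pair 23 was analysed here. The partners of pair 15 shared a cage and a cohort, so the 3 libraries stand for 2 pairs, and p-values measure the spread between these libraries only.

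Medium spiny neurons make up most of the neurons of the nucleus accumbens, in the ventral striatum, with interneurons and glia among them, and the region is known for its role in reward and in the bond between prairie vole partners. A library of polyadenylated RNA samples transcripts in proportion to their abundance, so a few very abundant transcripts can take a large part of its reads. TPM divides the reads of a gene by its length and scales the result to the same total in every library. A smaller share for some genes therefore raises the TPM of all others, whether or not their own RNA changed. In bulk tissue, fewer cells of a type and less RNA per cell cannot be told apart.

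The tables list 23038 gene IDs of the ENSMOCG form and do not pair them with names, and 0 of these IDs matched the 26397 genes of the reference table for the species. Genes are therefore given by ID, with no statement of what they encode, and the tissue label could not be checked against cell type markers. The reads behind the kept libraries were recovered from the steps between low values, at 20067514 to 37737711 reads on genes per library (median 27487240). For the 3 omitted libraries the value of 1 read was estimated from the same steps in the TPM table. This gave 28580796 reads for the female of pair 15, 24956636 for the male of pair 15 and 29715714 for the male of pair 23. Applied to the 42 kept libraries, the estimate missed the recovered total by -0.12% to 1.46%. In the shortest genes 1 read added relatively more TPM in the omitted libraries than in any kept one. The error found in kept libraries may therefore not hold for the omitted ones. The estimated depth of the 3 omitted libraries lay inside the range of the kept ones.

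The omitted libraries were set apart first by their most abundant RNAs. The 11 IDs of highest mean TPM held 10.8% of the TPM of the female of pair 15, 11.8% of that of the male of pair 15 and 9.20% of that of the male of pair 23. That mean was taken over the 3 omitted and the 42 kept libraries, so kept levels largely chose these IDs. A lower share in the omitted libraries, and its p-values below, are in part set by that choice. In the kept libraries the same 11 IDs held between 27.5% and 56.3%, with a median of 44.2%. All 3 omitted libraries lay below every kept library, and none lay near the lower end of that range. The difference in means was -33.4 percentage points (two-sided exact permutation p = 7.05e-05 over all 14190 splits of 3 against 42 libraries, the smallest these splits allow, adjusted over 15 library measures 0.000132). With each pair as 1 unit it was -33.8 points (exact permutation p = 0.00395 over 253 splits, again the smallest possible, adjusted 0.00659).

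The same held for reads, recovered for kept libraries and estimated from TPM for omitted ones. The 11 IDs took 6.31%, 7.23% and 5.13% of the estimated reads of the female of pair 15, the male of pair 15 and the male of pair 23. In kept libraries they took 12.01% to 37.0% of the recovered reads, with a median of 24.2%. The single most abundant ID of a library held 2.42%, 2.78% and 3.19% of TPM in the 3 omitted libraries, against 4.53% to 9.98% in the kept ones. The 100 most abundant IDs of each library held 36.3%, 38.1% and 33.4%, against 41.4% to 69.5%. On all of these measures the omitted and the kept libraries did not overlap. The last measure includes the 11 IDs, and with TPM rescaled without them its difference turned to 3.21 points above the kept mean (exact permutation p = 0.077).

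The TPM that the 11 IDs did not hold was spread over the next ranks rather than over rare genes. IDs of rank 12 to 100 held 23.3%, 24.5% and 22.2% of TPM in the female of pair 15, the male of pair 15 and the male of pair 23, and 11.5% to 15.8% in kept libraries. Ranks 101 to 1000 held 34.4%, 34.8% and 36.6%, and 15.1% to 26.5% in kept libraries. In both classes every omitted library lay above all 42 kept ones. For ranks 1001 to 5000 the shares of 23.6%, 22.04% and 24.2% lay at the upper end of the kept range of 11.4% to 24.3% (median 15.9%). For ranks from 5001 on, the shares of 7.72%, 6.72% and 7.61% lay inside the kept range of 4.00% to 10.2%, above its median of 5.83%.

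**Figure D1:**
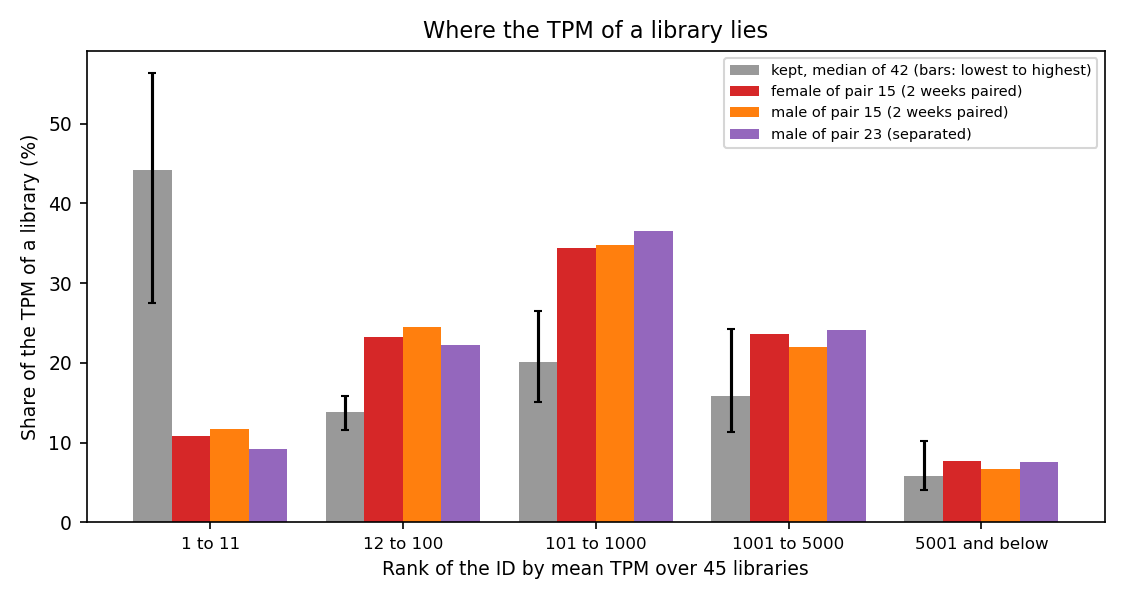
Share of the TPM of a library (percent, vertical axis) held by IDs in 5 classes of mean TPM rank (horizontal axis), for the median of the 42 kept libraries (grey, with lines from the lowest to the highest library) and for each of the 3 omitted libraries. The first class falls from a kept median of 44.2% to 9.20% to 11.8% in the omitted libraries, and the next 2 classes rise above the whole kept range.

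Within the 11 IDs the loss was uneven. ENSMOCG00000000021, which had the highest mean TPM over the kept libraries, was at 231 TPM in the female of pair 15, 329 TPM in the male of pair 15 and 119 TPM in the male of pair 23. In kept libraries it lay between 32294 and 99787 TPM, with a median of 69706. Its mean level was 302-fold lower in the omitted libraries, and the groups were far from overlapping. In reads this was an estimated 224, 289 and 121, against 30342 to 155872 in a kept library. It ranked first by the kept mean, and at place 662 in the female of pair 15, 450 in the male of pair 15 and 1363 in the male of pair 23. The fitted log2 difference was -8.32 ± 0.19 (SE; limma adjusted p = 2.50e-34).

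ENSMOCG00000000025 showed the next largest loss among the 11. It was at 1078 TPM in the female of pair 15, 747 TPM in the male of pair 15 and 228 TPM in the male of pair 23. Kept libraries ranged from 11291 to 24429 TPM, with a median of 17685. The mean was 26.8-fold lower in the omitted libraries, and the male of pair 23 was the lowest of the 3.

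ENSMOCG00000000023 lost least. It was at 24204 TPM in the female of pair 15, 27755 TPM in the male of pair 15 and 31875 TPM in the male of pair 23, against 30346 to 62192 TPM in kept libraries. The male of pair 23 fell inside the lower end of the kept range and the partners of pair 15 fell below it. The mean was 1.76-fold lower (log2 difference -0.78 ± 0.14, SE; limma adjusted p = 4.49e-06). This ID was the most abundant of all in each of the 3 omitted libraries, while in the kept mean that place belonged to ENSMOCG00000000021. ENSMOCG00000000016 was at 19636, 22539 and 17992 TPM in the female of pair 15, the male of pair 15 and the male of pair 23, and at 29124 to 58810 TPM in kept libraries. Its mean was 2.26-fold lower, and its groups did not overlap.

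ENSMOCG00000000022 was at 18868, 20977 and 18214 TPM in the female of pair 15, the male of pair 15 and the male of pair 23, and at 37979 to 89797 TPM in kept libraries. ENSMOCG00000000002 was at 4849, 4612 and 6141 TPM in the same order, against 6394 to 31221 TPM. These IDs were 3.49-fold and 3.43-fold lower on average, and neither overlapped the kept range, although the male of pair 23 came close to it for ENSMOCG00000000002. The other 5 of the 11 IDs formed a middle group. They are ENSMOCG00000000006, ENSMOCG00000000010, ENSMOCG00000000019, ENSMOCG00000000028 and ENSMOCG00000000035, with means 4.97, 5.88, 5.56, 5.93 and 4.48-fold lower in the omitted libraries. For each of these 5 the male of pair 23 was the lowest of the 3 libraries, at 4747, 3729, 3071, 2513 and 3400 TPM in that order of IDs.

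Across the set, 11 of 11 IDs were lower in the limma fit, and 10 of 11 had no overlap between omitted and kept libraries. These counts are in part set by the choice of the IDs. All 11 were the first 11 of the kept mean. Of the omitted libraries' own first 11, they made up 8 in the female of pair 15, 8 in the male of pair 15 and 5 in the male of pair 23. The median log2 difference of the 11 was -2.36, with a range from -8.32 to -0.78, against a median of 0.32 over all genes tested. In the same fit 18.5% of all genes were called lower. Every omitted library lay below the whole kept range in 8.78% of all genes tested. Of up to 15 alternatives tried for each ID, 1 turned a direction here: under quantile normalization, which gives every library the same distribution of values, ENSMOCG00000000023 and ENSMOCG00000000016 were higher by 0.60 and 0.31 on the log2 scale, while the other 9 stayed lower. The 6 libraries of 6-week pairs, which are also absent from the normalized table, held 37.6% to 49.0% of their TPM in the 11 IDs and lay inside the kept range. For ENSMOCG00000000021 they ranged from 64616 to 89511 TPM.

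**Figure D2:**
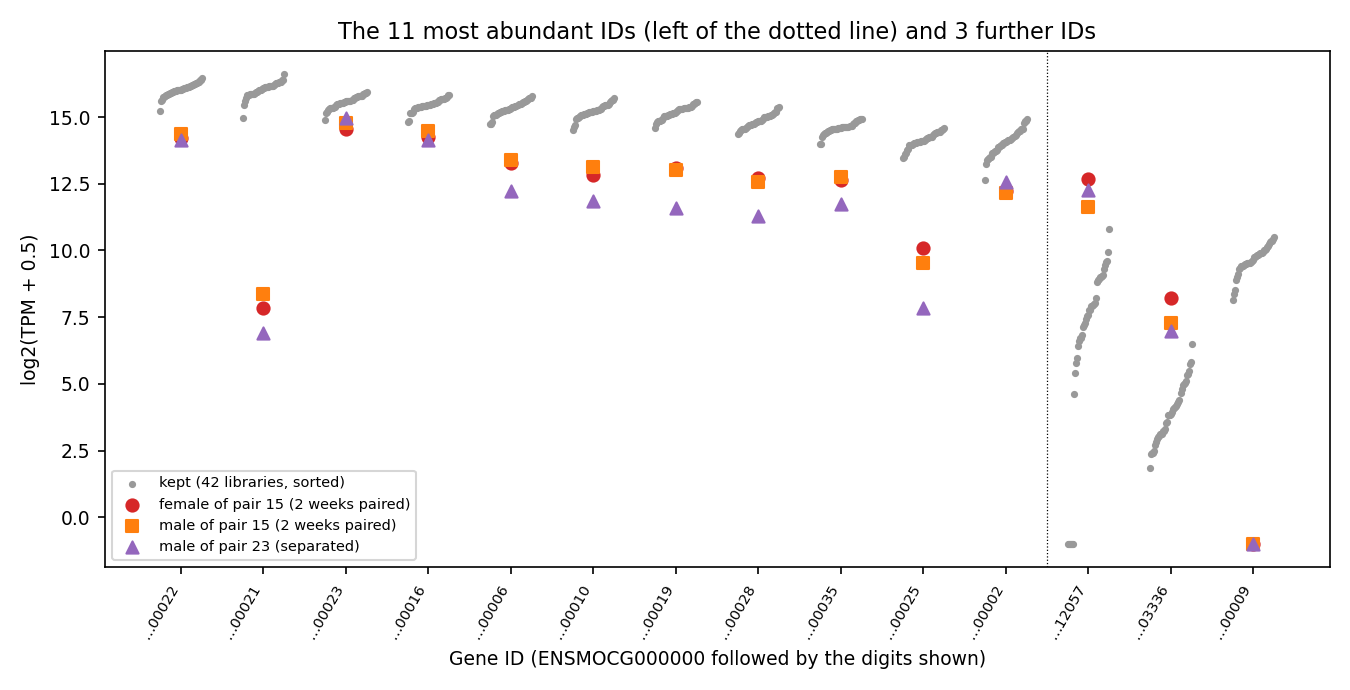
Level of each of the 11 most abundant IDs and of 3 further IDs (horizontal axis) in log2(TPM + 0.5) (vertical axis), with the 42 kept libraries as grey points sorted by level and the 3 omitted libraries as coloured symbols. All 3 symbols lie below the grey points for 10 of the 11 IDs, by the widest gap at ENSMOCG00000000021, and for ENSMOCG00000000023 the male of pair 23 falls among them; under quantile normalization this ID and ENSMOCG00000000016 are higher instead.

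The 3 omitted libraries were then fitted against the kept ones across all genes. The fit used limma on log2(TPM + 0.5) for the 13081 genes with a mean of at least 1 TPM, with the 4 groups of treatment and sex as terms. A gene was called at a Benjamini-Hochberg adjusted p under 0.05. In all, 7472 genes (57.1%) were called, 5050 higher (38.6%) and 2422 lower (18.5%) in the omitted libraries. In 2398 genes (18.3%) all 3 omitted libraries lay above the whole kept range, and in 1149 (8.78%) all 3 lay below it. Fitted with a replicate block for the pair, the calls were 4750 higher and 2239 lower.

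The split between higher and lower depended on the scale. The median log2 difference of all genes was 0.32 in TPM, where a smaller share for the 11 IDs is by construction a larger share for the other genes. With libraries scaled by the median ratio of their genes instead, that median was -0.03, and 7479 of 13025 genes (57.4%) were called, 3631 higher (27.9%) and 3848 lower (29.5%). With TPM rescaled after removal of the 11 IDs the median was -0.30, and 2147 genes were higher and 4788 lower. The total number of calls was 7472, 7479 and 6935 under the 3 scalings. A difference of one gene is therefore best read relative to the median of all genes under the same scaling.

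For 2 libraries, the 2-week females of pairs 9 and 15, the label and the table itself differed on which was kept, and the table was followed. Each of the 42 normalized columns correlated best with the TPM column of its own name. The female of pair 9 had 15997 genes above 0 TPM and 44.2% of TPM in the 11 IDs, inside the range of the other kept libraries. When that female was put in the place of the female of pair 15, as the labels have it, 2482 genes were called, 1469 higher and 1013 lower. The female of pair 15 then counted among the kept libraries, here and wherever this replacement is named below. Her own departure thus entered the kept side of each such comparison. In that arrangement the log2 differences of ENSMOCG00000000023, ENSMOCG00000012057 and ENSMOCG00000003336 kept their sign and did not pass, and those of the other 11 IDs named for the joint fit did.

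Higher calls were most frequent among abundant genes. Of the 89 genes of rank 12 to 100, 72 were higher and 8 lower, with a median log2 difference of 1.15. Of the 900 genes of rank 101 to 1000, 590 were higher and 103 lower, with a median of 0.80. Among the 4000 genes of rank 1001 to 5000, 1983 were higher and 749 lower (median 0.51). Among the 8081 rarer genes tested, 2405 were higher and 1551 lower (median 0.17). With median-ratio scaling the 4 medians were 0.76, 0.41, 0.13 and -0.17, so the order of the classes was the same and the sign of the last class was not.

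Among genes beyond the kept range on the same side in all 3 omitted libraries, the largest fitted increase was that of ENSMOCG00000012057. It was at 6567 TPM in the female of pair 15, 3128 TPM in the male of pair 15 and 4974 TPM in the male of pair 23. Kept libraries ranged from 0 to 1805 TPM with a median of 204, and 6 of the 42 were listed at 0. The mean was 15.98-fold higher in the omitted libraries, and no kept library reached the lowest of them (log2 difference 6.25 ± 1.90, SE; limma adjusted p = 0.00457). Taken one library at a time this ID did not pass, with limma adjusted p from 0.0917 to 0.27. In reads it had an estimated 13757, 5744 and 10988, against at most 5290 in a kept library.

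ENSMOCG00000003336 was next, at 301, 153 and 126 TPM in the female of pair 15, the male of pair 15 and the male of pair 23. Kept libraries lay between 3.14 and 88.6 TPM. The mean was 9.78-fold higher (log2 difference 3.82 ± 0.58, SE; limma adjusted p = 3.11e-07), and this ID passed in each library alone against all kept libraries. In the opposite direction the largest fitted differences were those of ENSMOCG00000000009 and ENSMOCG00000000021, the second of which is described above.

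ENSMOCG00000000009 was listed at 0 in all 3 omitted libraries. In the kept libraries it lay between 284 and 1438 TPM, with a median of 822. Its relative length, taken from the ratio of reads to TPM, was 0.00457 of that of the median gene. Its TPM therefore stands for few reads, between 60 and 306 in a kept library. Against a floor of 3 reads over the 3 omitted libraries together, it was at least 182-fold lower in its share of reads, a bound that covers counting error only. All 4 of these IDs, like ENSMOCG00000000025, have relative lengths of 0.0801 or less of the median gene.

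Fewer genes were detected in the omitted libraries at a like estimated depth. Genes above 0 TPM numbered 14653 in the female of pair 15, 14814 in the male of pair 15 and 14751 in the male of pair 23. Kept libraries had 15145 to 16291, with a median of 15867.5. All 3 omitted libraries lay below every kept one, including kept libraries with fewer reads (two-sided exact permutation p = 7.05e-05, adjusted 0.000132). The 6 libraries of 6-week pairs had 15819 to 16324 genes.

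The shortfall was measured by read class, with estimated reads for the omitted libraries. Genes with 1 to 10 reads numbered 927, 1267 and 991 in the female of pair 15, the male of pair 15 and the male of pair 23, and 1758 to 2147 in kept libraries. The mean was lower by 915 genes, and the ranges were far apart (two-sided exact permutation p = 7.05e-05, adjusted 0.000132). Genes with at least 10 reads numbered 13798, 13647 and 13815, inside the kept range of 13363 to 14403 (two-sided exact permutation p = 0.15, adjusted 0.187). Genes of at least 1 TPM numbered 12732, 12571 and 12763, also inside the kept range of 12012 to 13575 (two-sided exact permutation p = 0.676, adjusted 0.724). That count depends on the TPM scale: with TPM rescaled without the 11 IDs the difference was -790 genes (exact permutation p = 7.05e-05).

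**Figure D3:**
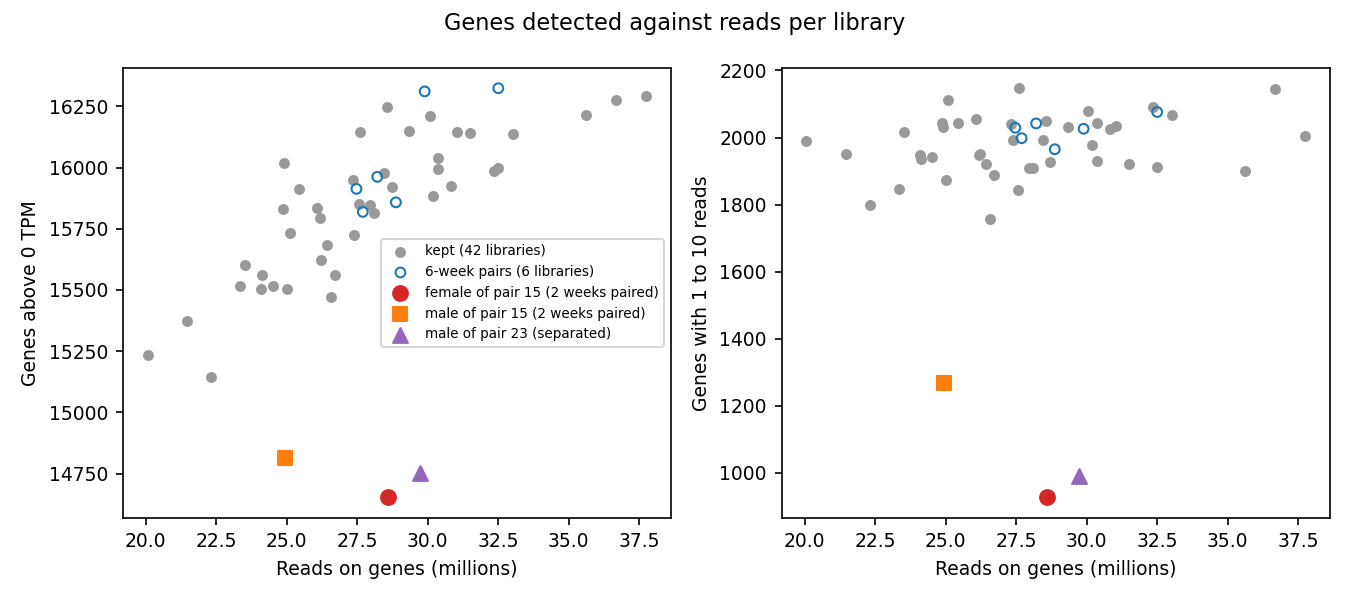
Genes above 0 TPM (left panel, vertical axis) and genes with 1 to 10 reads (right panel, vertical axis) against the reads on genes of each library (horizontal axes), for 42 kept libraries, 6 libraries of 6-week pairs and the 3 omitted libraries. The omitted libraries lie below all others in both panels, at 14653 to 14814 genes and at 927 to 1267 genes, while their estimated reads lie within the kept range.

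Some genes had no value above 0 in any omitted library. Of the IDs above 0 TPM in all 42 kept libraries, 70 were listed at 0 in all 3 omitted libraries, and 0 IDs showed the reverse. The reverse asks for 0 in all 42 kept libraries, while the 70 needed 0 in only 3 libraries. The counts of 70 and 0 are therefore not like for like, and no direction is read from them. How many IDs were above 0 TPM in all 42 kept libraries is not given here, so the 70 cannot be read as a share. Most of the 70 had few reads to lose: the median of their kept medians was 22.5 reads, and 15 of them had at least 10 reads in every kept library. Of 12039 genes with at least 10 reads in every kept library, 96 were listed at 0 in the female of pair 15, 74 in the male of pair 15 and 103 in the male of pair 23. Not 1 of these genes was at 0 in any of the 6 libraries of 6-week pairs. Of 8841 genes with at least 100 reads in every kept library, 5, 5 and 7 were listed at 0 in the same 3 libraries, and 0 in the 6-week libraries. An exact 0 in a TPM table can be a failed estimate, so these IDs are given only as listed at 0.

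ENSMOCG00000000233 was listed low or at 0 in all 3 omitted libraries. It was listed at 0 in both partners of pair 15 and was at 15.8 TPM in the male of pair 23, against 260 to 649 TPM in kept libraries. It had one of the 2 most negative fitted differences of each pair 15 library when the 3 libraries were fitted singly.

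The differences followed relative gene length. Relative gene lengths were taken from the ratio of reads to TPM in kept libraries and were had for all 13081 genes tested (100%). They are the lengths behind TPM and need not be the full lengths of the genes. In the quintile of genes with the shortest lengths, the median log2 difference from the kept mean was 0.64 in the female of pair 15, 0.62 in the male of pair 15 and 0.71 in the male of pair 23. The same median ranged from -0.34 to 0.36 over kept libraries. In the quintile with the longest genes it was 0.08, -0.12 and 0.13, within a kept range of -0.55 to 0.75. In the fitted differences the medians of the 5 quintiles were 0.62, 0.47, 0.35, 0.24 and 0.01 from short to long, and 0.27, 0.11, -0.01, -0.12 and -0.34 with median-ratio scaling.

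The step from the longest to the shortest quintile does not depend on how libraries are scaled to each other. It was 0.56 in the female of pair 15, 0.74 in the male of pair 15 and 0.57 in the male of pair 23, and -0.58 to 0.30 in kept libraries. All 3 omitted libraries exceeded all 42 kept ones (difference in means 0.61, two-sided exact permutation p = 0.000493, adjusted 0.000822). With each pair as 1 unit the adjusted value was 0.0237. The TPM that 1 read adds also differed with gene length between omitted and kept libraries, and the cause of this was not tested. The TPM that 1 read adds to a gene, relative to long genes, was 1.19 to 1.27 times the typical kept value for the shortest class of genes in the omitted libraries, and 0.908 to 1.07 times in kept ones. That class is shorter than most of the shortest quintile, whose median relative length was 0.262. In the class holding that length the value was 1.04 to 1.09 times in the omitted libraries and 0.981 to 1.01 times in kept ones.

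The step was also taken in CPM, the reads of a gene scaled to the total of its library. The reads of the omitted libraries were estimated from TPM with a correction for this differing value of 1 read, so this step is only as good as that correction. It was 0.37, 0.51 and 0.39 in the female of pair 15, the male of pair 15 and the male of pair 23. In kept libraries it was -0.54 to 0.27, so the groups did not overlap here either (difference in means 0.42, two-sided exact permutation p = 0.00768, adjusted 0.0105). With each pair as 1 unit it did not pass after adjustment (exact permutation p = 0.0395, adjusted 0.0539). With the female of pair 9 in the place of the female of pair 15, neither step passed: the differences were 0.24 in TPM (exact permutation p = 0.197) and 0.13 in reads (exact permutation p = 0.43).

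**Figure D4:**
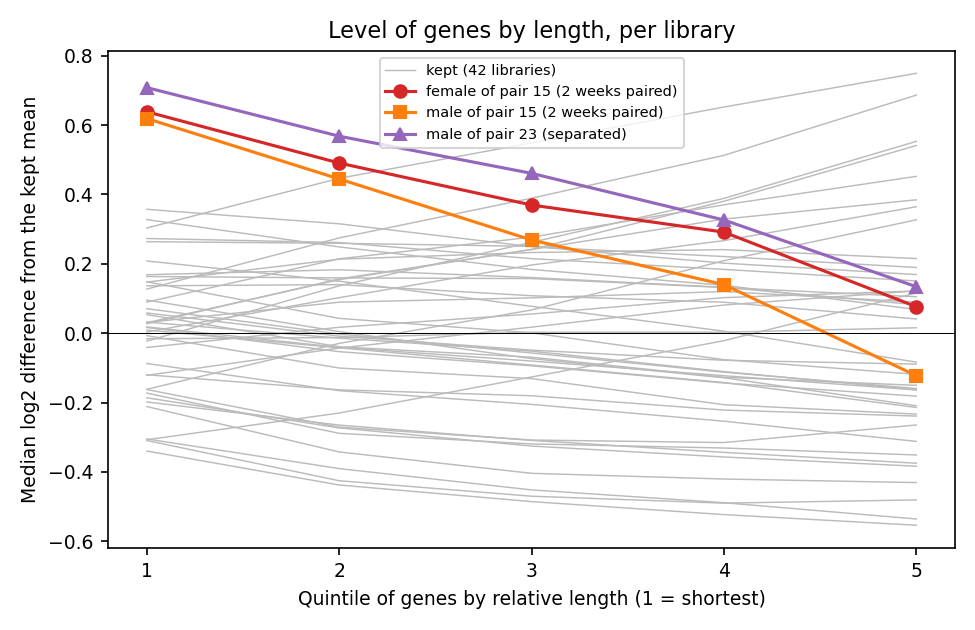
Median log2 difference from the kept mean (vertical axis) in 5 equal groups of genes from the shortest to the longest (horizontal axis), with 1 grey line per kept library and 1 coloured line per omitted library. The coloured lines start at 0.62 to 0.71, above every grey line, and descend to between -0.12 and 0.13 in the longest group, in the middle of the grey lines.

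As whole profiles the omitted libraries resembled the kept ones less than those resembled each other. The median Pearson correlation with the kept libraries across genes was 0.857 for the female of pair 15, 0.879 for the male of pair 15 and 0.870 for the male of pair 23, and 0.896 to 0.959 for kept libraries. On the first principal component of the kept libraries (48.1% of their variance) they scored -21.9, -25.7 and -19.6, within a kept range of -61.8 to 97.5 (two-sided exact permutation p = 0.42, adjusted 0.485). With TPM rescaled without the 11 IDs the difference in means was -62.8 instead of -22.4 (exact permutation p = 0.0147). On the second (7.29%) they scored 39.1, 28.9 and 39.2, toward the upper end of a range of -38.7 to 48.7 (two-sided exact permutation p = 0.000705, adjusted 0.00106). That difference did not pass without the 11 IDs (13.5, exact permutation p = 0.13) or with the female of pair 9 in the place of the female of pair 15 (12.6, exact permutation p = 0.285).

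Fitted singly against the same kept libraries, each omitted library departed in many genes. The female of pair 15 had 4763 calls (36.4%), 3090 higher and 1673 lower. The male of pair 15 had 4082 (31.2%), 2620 higher and 1462 lower, and the male of pair 23 had 4625 (35.4%), 3386 higher and 1239 lower. In these fits the lone library is assumed to vary like the others. The departures share their controls and are given side by side only.

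The largest fitted increases differed from library to library. In the female of pair 15 they were ENSMOCG00000002783, at 45.9 TPM against 0 to 25.6 in kept libraries, and ENSMOCG00000009429, at 267 TPM against 0.77 to 94.5. In the male of pair 15 they were ENSMOCG00000001293, at 109 TPM against 0.182 to 87.8, and ENSMOCG00000002355, at 69.6 TPM against 1.11 to 5.99. In the male of pair 23 they were ENSMOCG00000022354 and ENSMOCG00000009488, the second at 73.7 TPM against 0 to 35.2. Each lay above the highest kept library in the omitted library it was named for. Whether these IDs differed between the omitted libraries was tested only in the contrast of pair 15 with the male of pair 23.

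The difference between the 2 departures was tested directly, as the mean of the pair 15 partners minus the male of pair 23. It was called in 50 of 13081 genes (0.382%), 27 higher and 23 lower in pair 15, a number that rose to 128 with a pseudocount of 0.1. Of the 11 abundant IDs 3 were called, all less reduced in pair 15. The log2 value of ENSMOCG00000000025 differed by 2.14 ± 0.34 (SE; limma adjusted p = 0.000244), that of ENSMOCG00000000019 by 1.55 ± 0.31 (limma adjusted p = 0.005) and that of ENSMOCG00000000028 by 1.48 ± 0.34 (limma adjusted p = 0.026). The estimate was higher in pair 15 for 10 of the 11, the exception being ENSMOCG00000000023. Differences that did not pass are not thereby shown to be absent, since 1 library stands on one side.

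The partners of pair 15 were not always alike. ENSMOCG00000005015, one of the 2 IDs with the largest excess in pair 15 over the male of pair 23, was at 43.2 TPM in the female and 4.73 TPM in the male of pair 15, and at 0 in the male of pair 23. Kept libraries ranged from 17.3 to 51.8 TPM, so the female lay within the kept range and both males below it. ENSMOCG00000002907, the other of these IDs, was at 7.20 and 9.82 TPM in pair 15 and at 0 in the male of pair 23, with kept libraries at 0 to 3.69 TPM. In the opposite direction ENSMOCG00000022354 was at 66.5 TPM in the male of pair 23, above the kept range of 0.217 to 24.4, and at 0.271 and 0.317 TPM in pair 15.

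Separate controls were then used, so that the 2 departures shared no library. The pair 15 partners against the 14 kept libraries of cohort 2 gave 6156 calls among 13081 genes (47.1%), 4069 higher and 2087 lower. The overlaps below are each within 1 direction. They are to be read against the higher or the lower calls among all genes, not against the calls in either direction. The male of pair 23 against the 10 kept libraries of cohort 3 gave 2934 calls (22.4%), 2130 higher and 804 lower. Genes higher in both numbered 1946, which is 47.8% of those higher in pair 15 and 91.4% of those higher in the male of pair 23. Genes lower in both numbered 742, or 35.6% and 92.3% of the 2 lists, and 4 genes were called in opposite directions (1 higher and 3 lower in pair 15). With median-ratio scaling 328 genes were higher in both (11.6% and 82.8%) and 1743 lower in both (54.1% and 92.6%).

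Across the 13081 genes the 2 sets of log2 differences had a Pearson r of 0.799, and of 0.797 without the 11 abundant IDs. This is a description across genes of 3 libraries and 2 sets of controls. The 11 abundant IDs carry numbers from ENSMOCG00000000002 to ENSMOCG00000000035, as does ENSMOCG00000000009. Every tested ID numbered in that stretch was at or below 0 in both sets, against medians of 0.31 and 0.46 over all genes. Outside the 11, ENSMOCG00000000003 was at -6.72 and -7.61 and ENSMOCG00000000011 at -0.25 and -0.70, pair 15 first. This stretch was picked after the data were seen, and what its IDs share was not tested. For ENSMOCG00000000021 the log2 difference was -7.89 ± 0.24 in pair 15 within cohort 2 (SE; limma adjusted p = 4.50e-14) and -9.17 ± 0.23 in the male of pair 23 within cohort 3 (SE; limma adjusted p = 2.93e-10). All 11 abundant IDs were called lower within cohort 2, and 10 of 11 within cohort 3, where ENSMOCG00000000023 did not pass (log2 difference -0.62, limma adjusted p = 0.123). The cohort 3 fit sets 1 library against 10, so its SEs and p-values hold no spread of the omitted side and assume that it varies like the kept libraries. An exact test of 1 against 10 cannot go below 0.0909. Of the IDs with the largest increases, ENSMOCG00000012057 did not pass within cohort 2 (log2 difference 5.66, limma adjusted p = 0.0719) and ENSMOCG00000003336 did not pass within cohort 3 (2.34, limma adjusted p = 0.0793). The share of TPM in the 11 IDs differed by -31.7 points within cohort 2 and by -35.1 points within cohort 3.

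**Figure D5:**
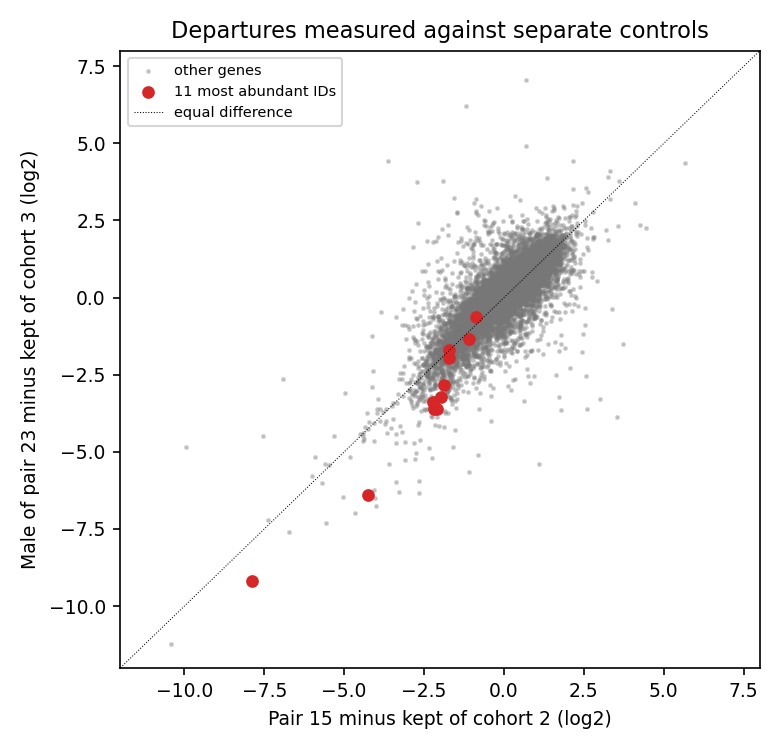
Log2 difference of each of 13081 genes between the pair 15 partners and the kept libraries of cohort 2 (horizontal axis) and between the male of pair 23 and the kept libraries of cohort 3 (vertical axis), with the 11 most abundant IDs in red and a dotted line of equal difference. The genes spread along the line (Pearson r of 0.799 across genes), and the red points lie at the lower left, with ENSMOCG00000000021 near -7.89 and -9.17.

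The labelled sex of the pair 15 partners was set beside 1 ID that earlier results of these data had set apart. ENSMOCG00000017273 was at 3.25 TPM in the female of pair 15 and at 0 in both omitted males. Among kept libraries it lay between 0.0586 and 9.47 TPM in females paired for 2 weeks and was at 0 in all 21 males. For this ID both partners of pair 15 lay with the kept 2-week libraries of their labelled sex. The ID was picked from these same data, so this is no independent check of sex. The lowest kept female paired for 2 weeks, at 0.0586 TPM, also lay close to the 0 of the males. The comparison does not extend to the separated male of pair 23, since the range given is of females that were still paired.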

How the data were processed

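RNA of the nucleus accumbens was measured by bulk RNA-seq, with 150 base paired-end reads from 200 ng of total RNA, per the labels' protocols. The first deposited table holds normalized counts, a signal in which read counts were divided by 1 size factor per library. DESeq2 and DESeq are listed in the submitters' processing notes, with no version. Each library's values divide into whole reads (100% of values, to within 0.01 of a read), which gave the recovered reads. The second deposited table holds TPM as the authors computed it. Not given in the sources used here are the aligner, counter, genome build, annotation and the gene lengths behind TPM.

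Reads of the TPM-only libraries were estimated from the 1-read steps of long genes (tolerance 0.1 of a read), with a correction for the differing value of 1 read in short genes. Differences in log2(TPM + 0.5) were tested with limma 3.58.1 in R 4.3.3 (eBayes, with its trend and robust settings), over genes averaging at least 1 TPM. Library measures were computed in Python 3.11.15 and tested by two-sided exact permutation. Benjamini-Hochberg adjustment was used throughout. The fits were tested on simulated data. Fold changes on this log scale understate the change of low genes.

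The labels give cohabiting partners 1 pair name, so pairing comes from the design, and the consensus correlation of partners in the fit with a pair block was 0.365. The named IDs are the 11 of highest mean TPM, the 2 per direction with the largest log2 difference among called genes beyond the kept range in all 3 omitted libraries, and the 2 per direction for each single fit and contrast. The members, lists, tests and alternatives were chosen with earlier results of these data known. The within-cohort fits, the measures in reads and the length step were added after the data were seen. The planned gene lists and cell type markers could not be used without gene names. No sequences are printed, because the IDs matched no sequence table.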

Additional observations from a re-analysis of the deposited data

Results flagged for a closer look

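Each library measure and each named ID was examined for a lone sample within the 10 females and within the 10 males paired for 2 weeks, 58 cases in all. A sample was marked where its gap to the nearest other sample, divided by the range of the group, exceeded Dixon's critical value, which chance alone passes in about 1 in 20 groups. Of 27 marks, 25 were for the partners of pair 15, 10 for the female and 15 for the male. Many of these IDs and measures already set the omitted libraries apart above, some IDs were named for that, and the values are related. The marks are therefore a description and cannot be set against the 1 in 20. The values below are these ratios of gap to range.

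The male of pair 15 was lowest for genes above 0 TPM (0.52), for the share of TPM in the 11 most abundant IDs (0.586) and for that in the 100 most abundant (0.478). Both partners were lowest for genes with 1 to 10 reads (female 0.716, male 0.681). The male of pair 15 was also marked as lowest, and the female, though lowest of the females too, was not marked, for ENSMOCG00000000022 (0.76), ENSMOCG00000000016 (0.618) and ENSMOCG00000000002 (0.612).

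Both partners of pair 15 were lowest, female value first, for ENSMOCG00000000021 (0.842 and 0.879), ENSMOCG00000000025 (0.766 and 0.81) and ENSMOCG00000000009 (0.868 and 0.841). The same held for ENSMOCG00000000006 (0.573 and 0.586), ENSMOCG00000000010 (0.625 and 0.566), ENSMOCG00000000019 (0.613 and 0.717), ENSMOCG00000000028 (0.621 and 0.695) and ENSMOCG00000000035 (0.585 and 0.686). The female was highest for ENSMOCG00000003336 (0.718).

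The other marks were for kept libraries. The 2-week male of pair 9 was highest for the median log2 difference of the longest quintile (0.471), and the 2-week male of pair 8 was lowest for ENSMOCG00000012057 (0.509), where it was listed at 0. The separated groups hold more than 10 libraries and were not examined in this way.

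The departure from the kept libraries differed between pair 15 and the male of pair 23 in the contrast for ENSMOCG00000000019 (1.55 on the log2 scale), ENSMOCG00000000028 (1.48) and ENSMOCG00000000025 (2.14), each higher in pair 15.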

How the results depend on the processing

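Of 199 recomputed values of the 14 named IDs, 194 kept their direction and their side of the threshold. The exceptions were ENSMOCG00000000023 (0.60) and ENSMOCG00000000016 (0.31) under quantile normalization, and 3 IDs that did not pass with the female of pair 9 in the place of the female of pair 15.

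For the joint fit, that replacement gave 2482 calls (1469 higher, 1013 lower), TPM without the 11 IDs gave 2147 higher and 4788 lower, and median-ratio scaling gave 3848 lower. Without 1 omitted library the count of calls lay between 6388 and 6654. A replicate block for the pair gave 6989 calls, and no call of a named ID changed. For single libraries, TPM without the 11 IDs gave 1247 higher and 3297 lower for the female of pair 15, 584 and 3201 for the male of pair 15, and 659 and 2767 for the male of pair 23. Median-ratio scaling gave 2852 lower for that female, 1639 higher and 2560 lower for that male, and 1175 and 2451 for the male of pair 23. Within cohorts it gave 3221 lower in pair 15 and 396 higher and 1883 lower in the male of pair 23. The contrast of pair 15 with the male of pair 23 called 128 genes with a pseudocount of 0.1 (71 higher, 57 lower), 78 without group terms (42, 36), 121 without the 11 IDs (62, 59) and 120 with median-ratio scaling (71, 49). The cause of these moves was not tested.

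Among library measures, the female of pair 9 in that place turned the difference in genes of at least 1 TPM to 28.2 and in the first component score to 8.29, and left differences of 12.6 in the second component score, 0.24 in the length step in TPM and 0.13 in the length step in reads that did not pass. Without the 11 IDs the differences were -790 in genes of at least 1 TPM and -62.8 in the first component score, both past the threshold, 13.5 in the second component score, which did not pass, 3.21 points in the share of the 100 most abundant IDs, -0.039 in the shortest quintile and -0.60 in the longest. The longest quintile also gave -0.019 without the male of pair 23, 0.11 without the male of pair 15 and -0.000649 within cohort 2, where the second component score differed by 30.1 (exact permutation p = 0.05). Within cohort 3 genes with 1 to 10 reads differed by -1006. One library against 10 cannot give an exact p below 0.0909.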

Other observations

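The 6 libraries of 6-week pairs have no column in the normalized table and entered no test. Their genes with 1 to 10 reads numbered 1965 to 2076, their medians of the shortest quintile lay between -0.09 and 0.07 on the log2 scale, and their median correlations with the kept libraries lay between 0.901 and 0.959. On each of these measures all 6 lay inside the kept range or within 0.001 of its end, and all 3 omitted libraries lay outside it.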
